A study of Mus musculus with 8 samples.

Results

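The 10 genes described here encode the enzymes that make fatty acids from citrate and that lengthen and desaturate them: Acly, Acaca, Acacb, Fasn, Elovl6, Scd1, Scd2, Elovl5, Fads1 and Fads2. They were taken by name from the count table, whose Entrez gene IDs were matched to symbols, and are 10 of its 24573 genes. All 10 were among the 12420 genes tested. Acacb was past the filter's level of 0.541 CPM (counts scaled to the library size) in 0 of the 2 scramble libraries and in both Brd9 and both Baf180 libraries, so that it was tested because of knockdown libraries.

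De novo synthesis starts in the cytosol, where ATP citrate lyase (Acly) releases acetyl-CoA from citrate, the acetyl-CoA carboxylases (Acaca and Acacb) turn it into malonyl-CoA, and fatty acid synthase (Fasn) joins these units into palmitate. Elovl6 lengthens palmitate, and the stearoyl-CoA desaturases Scd1 and Scd2 make the monounsaturated fatty acids of membranes and stored lipid from saturated chains. Fads2, Elovl5 and Fads1 act in turn on dietary polyunsaturated fatty acids. In many cell types the pathway is under the transcription factors made from Srebf1 and Srebf2, which are held in the endoplasmic reticulum while sterols are plentiful, and growing cells use its products to build membrane.

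RNA was sequenced in C2C12, a mouse myoblast line (ATCC CRL-1772), while the cells were proliferating at sub-confluent density in medium with calf serum. Each of the 4 groups carried a lentiviral short hairpin RNA (shRNA), introduced with polybrene and followed by puromycin: a scramble control sequence, or an shRNA against Brd9, Baf250A or Baf180. The targets belong to different forms of the SWI/SNF chromatin remodeller: Brd9 to the non-canonical complex, Baf250A (gene Arid1a) to canonical BAF and Baf180 (gene Pbrm1) to PBAF. Every group had 2 libraries, and all 8, controls included, were transduced and kept in puromycin. The sample titles carry a code for each target that is the same in both of its libraries, but its meaning was not given. How many hairpins were used per target, and whether replicate libraries represent separate transductions, was not given in the sources used here. The p-values then measure no more than library-to-library spread, possibly technical. The comparisons ask how the loss of each complex's subunit alters the myoblast transcriptome.

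Library totals ran from 17763062 to 20400855 estimated counts. Each target was lower in its own libraries than in scramble, by a log2 fold change of -2.39 (SE 0.16) for Brd9, -1.27 (SE 0.12) for Arid1a and -3.63 (SE 0.28) for Pbrm1. Pbrm1 was also called higher in Baf250A than in scramble (0.89, SE 0.23, edgeR adjusted p = 0.021). With the GC and length offsets described below it was at 0.16 there, not called, and at -0.33 in Brd9, called lower. Brd9 and Arid1a were not called against scramble outside their own libraries in either fit. Scramble replicate 2 stood apart with 16402 genes detected, against 14195 to 14768 in the other libraries, and calls of members and counts of lists that change without it are given below. All 7 myoblast markers were detected in every library, at a summed 1887 to 1905 CPM in scramble, 1485 to 1931 in Brd9, 782 to 1006 in Baf250A and 2461 to 3494 in Baf180. Des was the largest part of this sum in every library. Against scramble, 1 of the 7 was called higher and 0 lower in Brd9, 0 and 5 in Baf250A, and 4 and 1 in Baf180. Of all tested genes, 6.45% were called higher and 3.57% lower in Brd9, 15.5% and 14.0% in Baf250A, and 17.2% and 17.0% in Baf180. The counts of differentiated muscle markers below stand beside the same shares. Myf5 was at 22.2 and 28.0 CPM in scramble and 7.13 and 10.7 in Baf180. Chrna1 was at 302 in both scramble libraries and at 16.1 and 15.8 in Baf250A. Of 8 adipocyte markers, the defining genes Plin1, Cidec and Retn were at 0 counts in all 8 libraries and Adipoq had at most 1 count. The summed adipocyte markers came mainly from Cebpa and Pparg. The sums were 15.2 to 19.5 CPM in scramble, 39.6 to 41.4 in Brd9, 35.3 to 37.4 in Baf250A and 55.2 to 55.4 in Baf180. Cebpa made up most of this rise, at 5.89 to 7.36 CPM in scramble and 22.3 to 44.3 in the knockdown libraries. Pparg lay between 9.07 and 14.7 CPM in all 8 libraries. Smooth muscle markers (4 of 4 detected) summed to 3586 to 3609 CPM in scramble, 5423 to 6671 in Brd9, 8863 to 10353 in Baf250A and 9114 to 11309 in Baf180. Acta2 made up most of this sum in every library. Of the 4 markers, 3 were called lower in Baf180 than in Baf250A and 0 higher (median log2 fold change -0.94). Of all tested genes, 30.8% were called lower and 31.7% higher in that comparison. Of 5 fibroblast markers 3 or 4 were detected, summing to 144 to 149 CPM in scramble, 296 to 303 in Brd9, 261 to 283 in Baf250A and 351 to 359 in Baf180, and 6 differentiated muscle markers summed to 17 to 18, 13.0 to 19.4, 36.0 to 41.4 and 96.1 to 117 CPM. Acta1 made up most of that last sum in every library, and Col1a1 most of the fibroblast sum. Of the 4 differentiated muscle markers tested, 3 were called higher in Brd9, 1 in Baf250A and 2 in Baf180, with 0 lower. Their median log2 fold changes were 2.40, -0.33 and 1.89. With the GC and length offsets described below, 3 were higher and 1 lower in Brd9, against 11.8% and 18.4% of all tested genes. Myh3 had 3 and 0 counts in scramble and 12 and 17 in Brd9, and Mymk 9 and 3 against 34 and 42. Both were tested because of the Brd9 libraries, the only ones past the filter's level. Myog had 4 and 4 counts in scramble and 17 and 29 in Brd9. Hepatocyte markers summed to at most 0.232 CPM and macrophage markers to 8.98 to 19.3 CPM. These marker levels moved with the groups, and their part in the results below was not tested. In bulk RNA, fewer cells of a kind and less RNA per cell cannot be told apart.

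Base composition also moved with the groups. The 1229 tested genes with the lowest transcript GC content had median deviations from their mean log2 CPM of -0.18 and -0.01 in the scramble libraries, 0.44 and 0.05 in Brd9, 0.48 and 1.06 in Baf250A, and -1.10 and -0.69 in Baf180. The 10 genes span this range, with transcript GC contents of 44.0% (Elovl6), 44.8% (Elovl5), 47.1% (Scd1), 49.2% (Acaca), 49.5% (Scd2), 52.1% (Acly), 52.2% (Fads1), 54.4% (Fads2), 56.7% (Acacb) and 57.9% (Fasn). A further fit therefore carried offsets for GC content and gene length, called the offset fit below, and its fold change is given beside that from library scaling alone where it ends or adds a call or differs by over 1.5 times. Real expression differences that track GC content are lost in the offset fit as well.

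Sequences are shown for members on which the results turn. Scd1 and Scd2 share long coding stretches, and the longest identical one is printed because it bears on how reads were divided between these genes. It is 147 bases long, in capitals with 10 flanking coding bases on each side, and starts at coding base 523 of Scd1 and 532 of Scd2 in the GENCODE M21 transcripts:
Scd1: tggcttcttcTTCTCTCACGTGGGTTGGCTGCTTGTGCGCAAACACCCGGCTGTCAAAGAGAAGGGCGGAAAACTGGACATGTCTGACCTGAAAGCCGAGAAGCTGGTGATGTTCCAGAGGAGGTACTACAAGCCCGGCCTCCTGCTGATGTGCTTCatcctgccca
Scd2: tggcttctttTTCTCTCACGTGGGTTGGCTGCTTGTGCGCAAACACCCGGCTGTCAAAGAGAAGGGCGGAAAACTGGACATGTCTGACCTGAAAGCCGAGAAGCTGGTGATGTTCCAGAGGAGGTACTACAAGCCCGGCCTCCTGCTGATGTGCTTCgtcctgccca
No read that lies wholly inside the capitals can be placed in 1 of these genes by its letters. In all, 145 stretches of 50 coding bases were shared, 14.3% of those in Scd1 and 14.1% of those in Scd2, and 3.03% and 2.68% of those in the whole transcripts, whereas Fads1 and Fads2 shared 0. In the table, Scd1 and Scd2 were the 2 members with decimal counts, in all 8 libraries, while their sum was whole in all 8 within 0.03 counts. Their related genes Scd3 and Scd4 had at most 2.02 and 7.01 counts in any library.

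Promoter windows from RefSeq (GRCm38.p6, 250 bases before to 50 after a transcript start) were found for 7 of the 10 genes, and not for Scd1, Scd2 and Fads1. The windows of Acly, Fasn and Fads2 are printed because these 3 are the members with a window that were called lower in Baf250A against scramble with library scaling alone. Acaca was called lower there in the offset fit only, and its window is not printed. Capitals mark CCAAT boxes (CCAAT) and GC boxes (GGGCGG), searched on both strands, so that they also appear as ATTGG and CCGCCC. Acly lies at chr11:100527951-100528250, Fasn at chr11:120824498-120824797 and Fads2 at chr19:10101454-10101753, all on the minus strand:
Acly: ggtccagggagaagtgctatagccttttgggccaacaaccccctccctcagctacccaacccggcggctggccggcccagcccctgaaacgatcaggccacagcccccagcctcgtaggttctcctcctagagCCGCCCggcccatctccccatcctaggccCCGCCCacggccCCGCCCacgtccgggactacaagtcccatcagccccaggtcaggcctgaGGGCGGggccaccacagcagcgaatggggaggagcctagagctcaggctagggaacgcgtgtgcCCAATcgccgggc
Fasn: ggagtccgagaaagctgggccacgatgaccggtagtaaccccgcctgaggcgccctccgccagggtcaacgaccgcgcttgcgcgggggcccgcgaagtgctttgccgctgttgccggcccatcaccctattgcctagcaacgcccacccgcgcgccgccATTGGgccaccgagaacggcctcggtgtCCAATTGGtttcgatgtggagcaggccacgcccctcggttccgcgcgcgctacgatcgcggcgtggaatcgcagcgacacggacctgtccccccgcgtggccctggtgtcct
Fads2: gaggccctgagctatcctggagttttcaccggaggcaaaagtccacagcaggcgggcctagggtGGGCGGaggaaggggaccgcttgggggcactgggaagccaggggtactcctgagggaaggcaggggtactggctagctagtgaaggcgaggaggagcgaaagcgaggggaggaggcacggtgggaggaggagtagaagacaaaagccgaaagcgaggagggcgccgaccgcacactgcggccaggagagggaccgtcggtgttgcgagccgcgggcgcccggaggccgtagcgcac
Fasn has 3 CCAAT boxes, the last 2 overlapping on opposite strands, Acly has 1 CCAAT box and 4 GC boxes, and Fads2 has 1 GC box. The Acaca window has 0 of either. Over the 7 members, 4 windows held a CCAAT box, which 37.4% of all 32851 RefSeq windows of this length hold, and 2 held a GC box, against 35.7% of all. An E-box (CACGTG, its own reverse complement) was found in 1, that of Elovl5, against 7.15% of all, and the sterol element TCACNCCAC in 0, against 1.24%. No match of 1 motif overlapped a match of another, and these matches describe letters only. The windows of Acaca (chr11:84195188-84195487), Acacb (chr5:114165268-114165567) and Fasn lie wholly inside the gene positions given below. The search therefore did not cover the upstream ends of these genes.

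Levels were compared between the genes per kilobase of the table's gene length. Scd2 had the highest mean of the 10 in every group, at 161 ± 12.4 CPM per kilobase in scramble, 189 ± 11 in Brd9, 91.8 ± 9.86 in Baf250A and 155 ± 15.3 in Baf180 (SD, n = 2 each). In Baf180 replicate 1, however, Scd2 (145 CPM per kilobase) lay below Fasn (151) and Fads2 (150). Fasn and Fads2 followed in scramble at 117 ± 1.13 and 109 ± 1.20 CPM per kilobase (SD, n = 2), and exchanged places in Brd9 and Baf180, where their libraries overlapped. In Baf250A, Acly (42.7 ± 0.299) and Fads2 (41.0 ± 4.01) overlapped below Fasn (71.6 ± 12.7). In scramble, Acly (63.6 ± 5.60) and Fads1 (60.1 ± 1.97) overlapped, as did no other neighbours, and below them came Scd1 at 31.0 ± 1.27, Elovl5 at 27.1 ± 1.36, Acaca at 22.3 ± 0.223 and Elovl6 at 6.23 ± 0.837 CPM per kilobase (SD, n = 2). Acacb was lowest in every group, at 0.0334 ± 0.00880 CPM per kilobase in scramble and 0.345 ± 0.0335 in Baf180 (SD, n = 2). The table's length for Fads2, 1508 bases, is shorter than its GENCODE transcript of 3150 bases, and its place in this order depends on that. Summed over the 10 genes, CPM were 3230 and 3099 in the scramble libraries, 2696 and 2869 in Brd9, 2051 and 1974 in Baf250A, and 3414 and 3122 in Baf180. The Baf250A libraries were the lowest, and the Baf180 libraries overlapped with scramble.

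**Figure D1:**
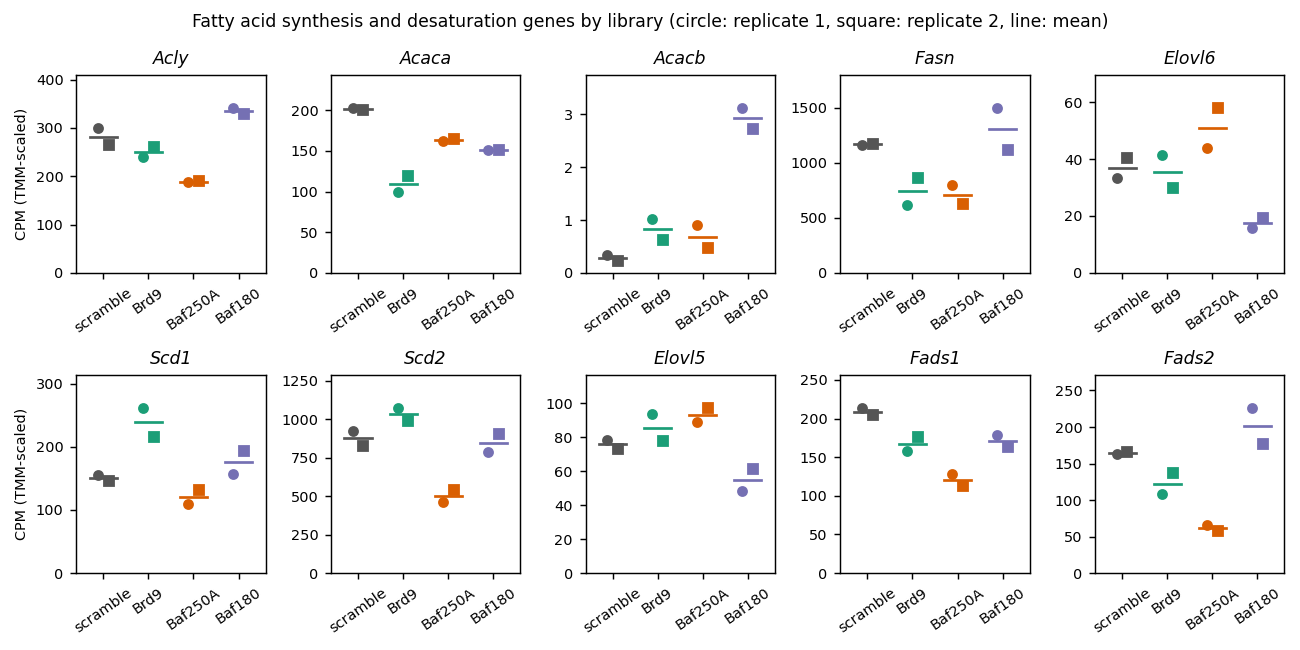
CPM (TMM-scaled, linear axis from 0, own scale per gene) of the 10 genes in each of the 8 libraries; circles are replicate 1, squares replicate 2 and lines the mean of 2. Fads2 ran from 57.5 to 66.1 CPM in Baf250A against 163 to 166 in scramble, and Acacb reached 3.13 CPM in Baf180 against at most 0.337 in scramble.

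Baf250A knockdown lowered 5 of the 10 genes and raised 0: Fads2, Scd2, Fads1, Fasn and Acly were called lower (edgeR quasi-likelihood test, adjusted p below 0.05 over all tested genes). Of all tested genes, 14.0% were called lower and 15.5% higher in this comparison. The 10 genes had a median log2 fold change of -0.45, against -0.02 over all tested genes. In the offset fit 7 were lower and 0 higher, Scd1 and Acaca being added, where 17.5% of all tested genes were called lower and 17.9% higher. The count was 2 without scramble replicate 1, 3 without Baf250A replicate 2 and 4 without scramble replicate 2. Without Baf250A replicate 1 a gene was also called higher, Elovl6.

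Brd9 knockdown raised Scd1 and lowered Acaca, 1 of 10 in each direction, beside 6.45% of all tested genes called higher and 3.57% called lower. The median log2 fold change was -0.11, against 0.04 over all tested genes. In the offset fit 1 was higher (Scd1) and 5 were lower (Acaca, Fasn, Fads1, Fads2 and Elovl6), where 11.8% of all tested genes were called higher and 18.4% lower. With either scramble library or Brd9 replicate 1 left out, 1 call was made, Acaca.

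Baf180 knockdown raised Acacb and lowered 3 genes, Elovl6, Elovl5 and Acaca, beside 17.2% of all tested genes called higher and 17.0% called lower. The median log2 fold change was 0.06, against -0.02 over all tested genes. In the offset fit 2 were higher (Acacb and Scd1) and 2 lower (Elovl6 and Fads1), where 18.0% of all tested genes were called higher and 20.2% lower. The count of 4 fell to 1, Acacb, without scramble replicate 2 or without Baf180 replicate 1, and to 2 without scramble replicate 1 or either Baf250A library. The 3 comparisons share the scramble libraries, so their values stand side by side and are not independent of each other.

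**Figure D2:**
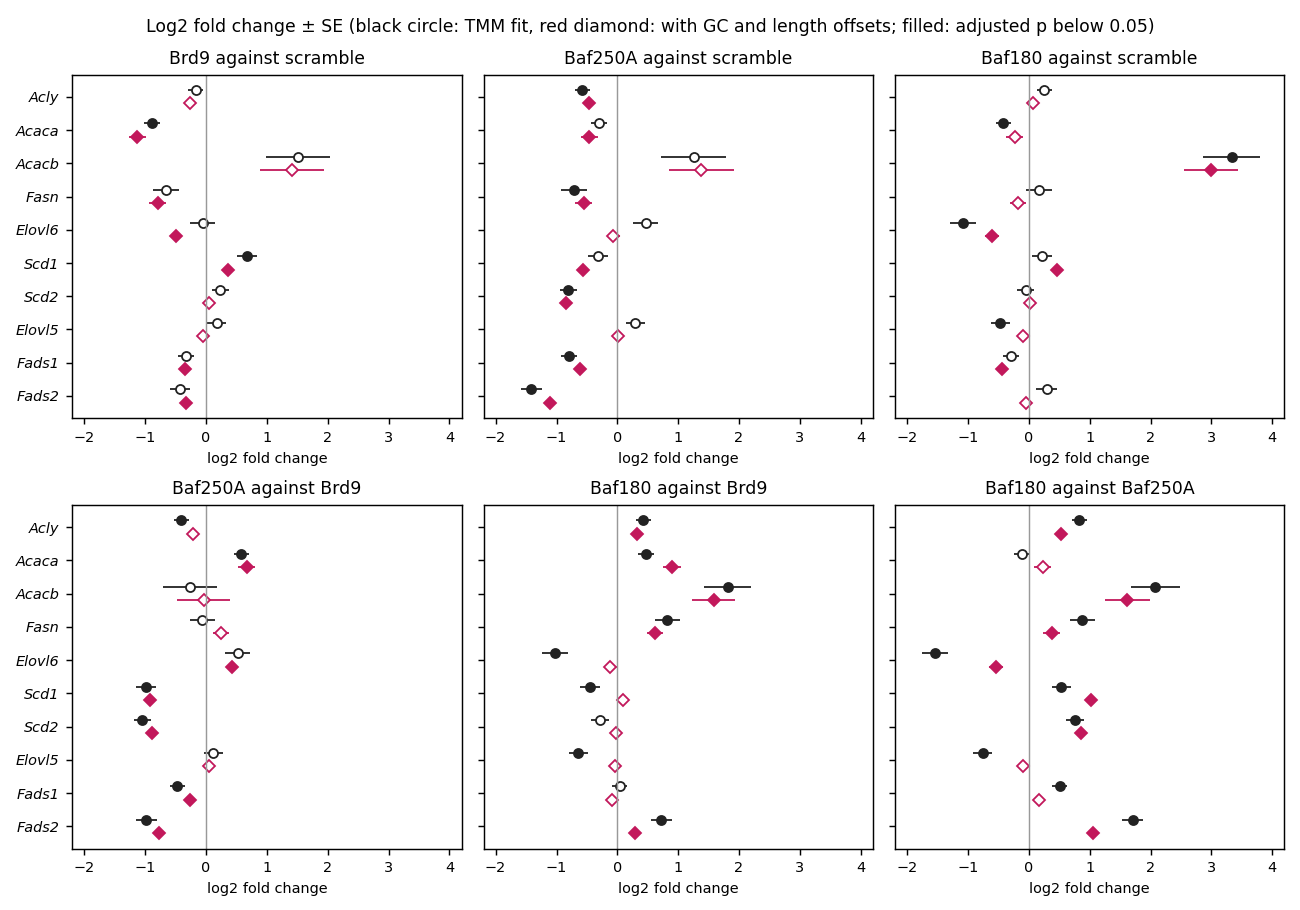
Log2 fold change with SE (x axis) for the 10 genes (y axis) in the 6 comparisons; black circles are the fit with TMM scaling, red diamonds the fit with GC and length offsets, and filled symbols have an adjusted p below 0.05. In the Baf250A against scramble panel Fads2 lies at -1.41 and at -1.11 with the offsets, and in the Baf180 against scramble panel Elovl5 moves from -0.47 to -0.09.

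Acly (Entrez 104112, chr11:100476352-100528000, minus strand, GRCm38), which supplies acetyl-CoA, was measured at 299 and 264 CPM in the scramble libraries, 241 and 260 in Brd9, 188 and 190 in Baf250A, and 342 and 329 in Baf180. Both Baf250A libraries lay below every other library. The log2 fold change against scramble was -0.58 (SE 0.12, edgeR adjusted p = 0.0099), or -0.47 in the offset fit (adjusted p = 0.0028). The call ended without scramble replicate 1 (adjusted p = 0.108), Baf250A replicate 1 (0.0568) or Baf250A replicate 2 (0.0927). For Brd9 and Baf180 the log2 fold changes were -0.17 (SE 0.12) and 0.25 (SE 0.12), or -0.26 and 0.06 in the offset fit, none of them called.

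Acaca (Entrez 107476, chr11:84129635-84401651, plus strand), the cytosolic carboxylase whose malonyl-CoA feeds Fasn, had 203 and 201 CPM in scramble, 99.5 and 119 in Brd9, 162 and 164 in Baf250A, and 152 and 151 in Baf180. Every knockdown library was below both scramble libraries, and the Brd9 libraries were the lowest. Against scramble, the Brd9 log2 fold change was -0.89 (SE 0.13, edgeR adjusted p = 0.0035), which was called with each of the 8 libraries left out in turn, and -1.13 in the offset fit (adjusted p = 0.00037). In Baf180 it was -0.42 (SE 0.13, edgeR adjusted p = 0.033), but this call ended without any 1 of the scramble, Baf250A or Baf180 libraries (adjusted p from 0.0559 to 0.167) and in the offset fit (-0.23, adjusted p = 0.22). For Baf250A it was -0.31 (SE 0.13, not called) and -0.46 in the offset fit (edgeR adjusted p = 0.027).

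Acacb (Entrez 100705, chr5:114146321-114250761, plus strand), the carboxylase at the mitochondrial surface whose malonyl-CoA restrains fatty acid import for oxidation, was near the limit of detection. Its counts were 6 and 4 in scramble, 21 and 12 in Brd9, 18 and 9 in Baf250A, and 54 and 50 in Baf180. Both Baf180 libraries were above all others, and no knockdown library was as low as scramble. Baf180 against scramble gave a log2 fold change of 3.33 (SE 0.47, 95% interval 2.28 to 4.38, edgeR adjusted p = 0.0014), called with each library left out in turn, and 3.0 in the offset fit (adjusted p = 0.00063). The scramble side of this ratio rests on 10 counts in all, the Baf180 side on 104. For Brd9 and Baf250A the values were 1.52 (SE 0.53) and 1.25 (SE 0.54), not called in either fit.

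Fasn (Entrez 14104, chr11:120805958-120825166, minus strand), whose promoter window is printed above, had 1160 and 1176 CPM in scramble, 618 and 865 in Brd9, 801 and 622 in Baf250A, and 1502 and 1119 in Baf180. All 4 Brd9 and Baf250A libraries were below scramble, while the Baf180 libraries fell on both sides of it. The log2 fold change in Baf250A was -0.71 (SE 0.21, edgeR adjusted p = 0.031) and -0.55 in the offset fit (adjusted p = 0.011). Without scramble replicate 1, scramble replicate 2 or Baf250A replicate 2 it was not called (adjusted p = 0.118, 0.122 and 0.237). In Brd9 it was -0.66 (SE 0.21, edgeR adjusted p = 0.075), not called in the main fit, but called lower in the offset fit (-0.80, adjusted p = 0.0024), by DESeq2 (adjusted p = 0.014) and with Brd9 replicate 2 left out (adjusted p = 0.044). Baf180 gave 0.17 (SE 0.21) and, in the offset fit, -0.18, neither called.

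Elovl6 (Entrez 170439, chr3:129532386-129638495, plus strand), which lengthens palmitate to stearate, had 33.5 and 40.6 CPM in scramble, 41.3 and 29.9 in Brd9, 44.0 and 58.1 in Baf250A, and 15.9 and 19.2 in Baf180. The Baf180 libraries were the lowest of the 8 and the Baf250A libraries the highest. Baf180 against scramble gave a log2 fold change of -1.08 (SE 0.22, edgeR adjusted p = 0.0069) and -0.61 in the offset fit (adjusted p = 0.0020), a smaller value for the gene with the lowest GC content of the 10. The main call ended without scramble replicate 2 (adjusted p = 0.054) or Baf180 replicate 1 (0.0513). In Baf250A the value was 0.46 (SE 0.21, not called) and -0.07 in the offset fit, but 0.72 and called higher without Baf250A replicate 1 (edgeR adjusted p = 0.0467). In Brd9 it was -0.06 (SE 0.21, not called), against -0.49 in the offset fit (edgeR adjusted p = 0.0069).

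Scd1 (Entrez 20249, chr19:44394450-44407709, minus strand) and Scd2 (Entrez 20250, chr19:44293676-44306864, plus strand), neighbours on chromosome 19, are both stearoyl-CoA desaturases. Scd1 had 155 and 146 CPM in scramble, 262 and 215 in Brd9, 109 and 132 in Baf250A, and 157 and 193 in Baf180. Scd2 had 924 and 828 CPM in scramble, 1075 and 990 in Brd9, 463 and 539 in Baf250A, and 788 and 906 in Baf180. The Brd9 libraries were the highest and the Baf250A libraries the lowest for both genes.

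Scd1 rose with Brd9 knockdown by a log2 fold change of 0.67 (SE 0.16, edgeR adjusted p = 0.035), or 0.37 in the offset fit (adjusted p = 0.0074). That call ended without scramble replicate 1 (adjusted p = 0.166), scramble replicate 2 (0.225) or Brd9 replicate 1 (0.214). Scd2 in Brd9 was at 0.24 (SE 0.14) and at 0.04 in the offset fit, not called in either. Scd2 fell by 0.81 on the log2 scale with Baf250A knockdown (log2 fold change -0.81, SE 0.14, edgeR adjusted p = 0.0043, and -0.84 in the offset fit), and was not called once scramble replicate 1 was left out (adjusted p = 0.051). Scd1 in Baf250A was at -0.31 (SE 0.16, not called) and at -0.56 in the offset fit (edgeR adjusted p = 0.00050). In Baf180, Scd2 was at -0.05 (95% interval -0.37 to 0.27) and Scd1 at 0.22 (95% interval -0.14 to 0.59), neither called. Scd2 was at 0.02 in the offset fit, and Scd1 at 0.46 and called (edgeR adjusted p = 0.0016).

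Since reads from the shared stretch were split by estimate, the 2 genes were also summed into 1 row before the fit, an alternative chosen after the values were seen. The sum was 1079 and 974 CPM in scramble, 1336 and 1205 in Brd9, 572 and 671 in Baf250A, and 945 and 1100 in Baf180. Baf250A lowered it by a log2 fold change of -0.72 (SE 0.15, edgeR adjusted p = 0.0077), or -0.76 in the offset fit. For Brd9 the sum was not called (0.31, SE 0.14, edgeR adjusted p = 0.19, and 0.11 in the offset fit). Scd1 made up 15.8% and 16.5% of the pair per kilobase in scramble and 18.3% to 21.7% in the 6 knockdown libraries.

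**Figure D3:**
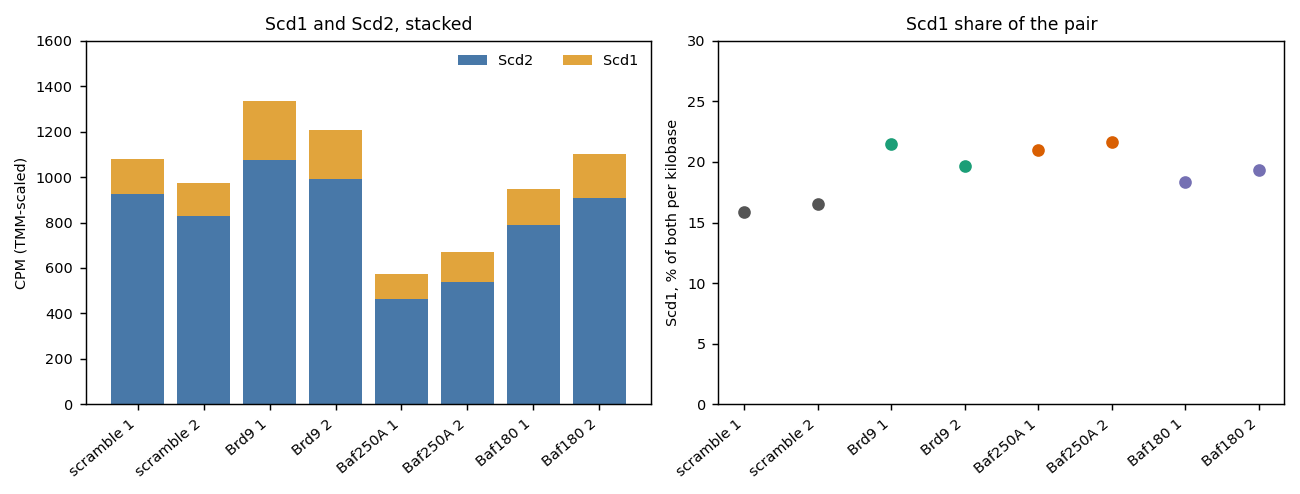
Left, stacked CPM (TMM-scaled) of Scd2 and Scd1 in the 8 libraries; right, Scd1 as a percentage of both genes per kilobase. The stacks are lowest in the Baf250A libraries, at 572 and 671 CPM, and the Scd1 share is lowest in the scramble libraries, at 15.8% and 16.5%.

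Elovl5 (Entrez 68801, chr9:77917365-77984519, plus strand), an elongase of polyunsaturated fatty acids, had 78.5 and 73.1 CPM in scramble, 93.6 and 77.5 in Brd9, 88.6 and 97.2 in Baf250A, and 48.2 and 61.5 in Baf180. The Baf180 libraries were the lowest. Their log2 fold change of -0.47 (SE 0.16, edgeR adjusted p = 0.0495) was called in 1 of 8 fits with a library left out and was -0.09 in the offset fit (adjusted p = 0.43), where all 4 groups lay between 71.1 and 82.0 corrected CPM. The adjusted p was 0.225 without scramble replicate 1, 0.141 without scramble replicate 2, 0.268 without Baf180 replicate 1 and 0.0567 to 0.0668 without a Brd9 or Baf250A library. The Brd9 and Baf250A values were 0.17 (SE 0.16) and 0.29 (SE 0.16), and -0.05 and 0.01 in the offset fit, none of them called.

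Fads1 (Entrez 76267, chr19:10182877-10196874, plus strand) and Fads2 (Entrez 56473, chr19:10062765-10101503, minus strand) are desaturases of polyunsaturated fatty acids that lie 81373 bases apart on opposite strands. Fads1 had 214 and 204 CPM in scramble, 158 and 176 in Brd9, 128 and 113 in Baf250A, and 178 and 163 in Baf180. Fads2 had 163 and 166 CPM in scramble, 108 and 136 in Brd9, 66.1 and 57.5 in Baf250A, and 226 and 177 in Baf180. For both genes the Baf250A libraries were the lowest of the 8. All 6 knockdown libraries were below scramble for Fads1, whereas for Fads2 the Baf180 libraries were above it.

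With Baf250A knockdown, Fads2 had a log2 fold change of -1.41 (SE 0.17, edgeR adjusted p = 0.00061) and -1.11 in the offset fit (adjusted p = 8.3e-06), and Fads1 -0.79 (SE 0.13, adjusted p = 0.0031) and -0.61 (adjusted p = 0.00048). Both were called with each of the 8 libraries left out in turn. In Brd9 the values were -0.43 (SE 0.17) for Fads2 and -0.33 (SE 0.13) for Fads1, not called in the main fit and called lower in the offset fit, at -0.34 for each. In Baf180, Fads1 was at -0.29 (SE 0.13, not called) and -0.44 in the offset fit (edgeR adjusted p = 0.0032), and Fads2 at 0.29 (SE 0.17) and -0.05, neither called.

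Other genes overlap 6 of the 10 members in the GENCODE annotation. Of these 8 overlapping genes, 4 have a row in the table, and each of the 4 had 0 counts in all libraries.

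The knockdowns were next compared with each other, which tests directly whether they differ. Between Baf250A and Brd9, 5 of the 10 genes were lower in Baf250A and 1 was higher, beside 15.0% of all tested genes called lower and 10.0% higher. Scd2 (log2 fold change -1.04, SE 0.14), Scd1 (-0.98, SE 0.16) and Fads2 (-0.98, SE 0.17) were lower with each library left out in turn and in the offset fit, where they were at -0.88, -0.92 and -0.77. For the sum of Scd1 and Scd2 the difference was -1.03 (SE 0.15, edgeR adjusted p = 0.0014). Elovl6 was at 0.52 (SE 0.21), not called in the main fit, but was called higher in Baf250A in the offset fit (0.43, edgeR adjusted p = 0.0079). DESeq2 also called it higher (adjusted p = 0.044). Fads1 (-0.47, SE 0.13) and Acly (-0.41, SE 0.12) were called in 2 of 8 fits with a library left out. Fads1 was at -0.27 in the offset fit, called, and Acly at -0.21, not called (edgeR adjusted p = 0.079). Their adjusted p rose to at most 0.234 and 0.221, and exceeded the threshold without any 1 of the scramble, Brd9 or Baf250A libraries. Acaca was higher in Baf250A (0.58, SE 0.13, and 0.67 in the offset fit), a call that ended without Brd9 replicate 1 (edgeR adjusted p = 0.0553) or Baf250A replicate 2 (0.0512).

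Between Baf180 and Brd9, 5 genes were higher in Baf180 and 3 lower, beside 23.3% of all tested genes called higher and 26.3% lower. Acacb (1.81, SE 0.39), Fasn (0.82, SE 0.21), Fads2 (0.72, SE 0.17), Acaca (0.47, SE 0.13) and Acly (0.42, SE 0.12) were higher, and each was also called in the offset fit, at 1.58, 0.62, 0.29, 0.90 and 0.32. Elovl6 (-1.02, SE 0.22), Elovl5 (-0.64, SE 0.16) and Scd1 (-0.45, SE 0.16) were lower, but in the offset fit they were at -0.11, -0.05 and 0.09 and none was called (edgeR adjusted p = 0.46, 0.72 and 0.40). The count of 8 was 0 without Baf180 replicate 1 and 1 without Brd9 replicate 1.

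Between Baf180 and Baf250A, 7 genes were higher in Baf180 and 2 lower, beside 31.7% of all tested genes called higher and 30.8% lower. Fads2 differed by a log2 fold change of 1.71 (SE 0.17, edgeR adjusted p = 0.00012) and 1.06 in the offset fit. Acacb (2.08, SE 0.40), Fasn (0.88, SE 0.21), Acly (0.83, SE 0.12) and Scd2 (0.76, SE 0.14) were also higher and were called with each library left out in turn and in the offset fit, at 1.62, 0.38, 0.53 and 0.86. Scd1 (0.54, SE 0.16) was not called without Baf250A replicate 1 (edgeR adjusted p = 0.156) or Baf180 replicate 2 (0.0957), and Fads1 (0.51, SE 0.13) not without Baf250A replicate 2 (0.103). Scd1 was at 1.01 in the offset fit, called, and Fads1 at 0.17, not called. Elovl6 was lower in Baf180 (-1.54, SE 0.22, and -0.54 in the offset fit), as was Elovl5 (-0.76, SE 0.16), which the offset fit placed at -0.10 without a call.

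The transcription factor genes of the pathway were read beside its enzymes. Srebf2, whose product mainly drives cholesterol genes, had 449 and 447 CPM in scramble, 327 and 416 in Brd9, 223 and 192 in Baf250A, and 779 and 627 in Baf180. Its groups did not overlap, with Baf250A lowest and Baf180 highest. Baf250A lowered it (log2 fold change -1.11, SE 0.17, edgeR adjusted p = 0.0019, and -0.81 in the offset fit), and Baf180 raised it in the main fit (0.65, SE 0.17, adjusted p = 0.017) but not in the offset fit (0.19, adjusted p = 0.11). For Brd9 it was at -0.27 (SE 0.16, not called) and -0.32 in the offset fit (edgeR adjusted p = 0.025). Srebf1, whose product mainly drives fatty acid genes, had 123 and 120 CPM in scramble, 102 and 116 in Brd9, 103 and 86.4 in Baf250A, and 170 and 153 in Baf180. It was called in Baf180 (0.41, SE 0.14, edgeR adjusted p = 0.048), where the offset fit gave -0.04 without a call, and not in Brd9 (-0.16, SE 0.14) or Baf250A (-0.35, SE 0.14, and -0.01 in the offset fit). The Baf180 calls of Srebf2 and Srebf1 each held in 5 of 8 fits with a library left out and ended without either scramble library or Baf180 replicate 1.

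Over the list of lipogenic regulators, 14 of 16 genes were tested. None of the 14 was called in Brd9, while 1 was higher and 2 lower in Baf250A and 6 were higher and 0 lower in Baf180. In the offset fit the counts were 2 higher and 4 lower in Brd9, 2 and 2 in Baf250A, and 2 and 2 in Baf180. Without scramble replicate 2 they were 0 and 0, 0 and 2, and 1 and 0, and the Baf180 count of higher genes was also 1 without scramble replicate 1. In the main fit, genes called higher made up 6.45% of all tested genes in Brd9, 15.5% in Baf250A and 17.2% in Baf180. Genes called lower made up 3.57% in Brd9, 14.0% in Baf250A and 17.0% in Baf180. With offsets, the higher share was 11.8% in Brd9, 17.9% in Baf250A and 18.0% in Baf180. The lower share was then 18.4% in Brd9, 17.5% in Baf250A and 20.2% in Baf180. Main and offset counts of each list, here and below, stand beside the shares of their own fit. No such share is given for fits with a library left out. Calls of single list genes held in all 8 fits with a library left out unless a smaller number is given, and each call that did not ended without 1 or both of the scramble libraries, in many cases among others. Rxra, the partner of the liver X receptors, was higher in Baf250A (0.49, SE 0.14, in 5 of 8 fits) and in Baf180 (1.21, SE 0.14), and at 0.79 and 0.77 in the offset fit. Mid1ip1, which helps acetyl-CoA carboxylase polymerise, was lower in Baf250A (-0.65, SE 0.12, in 6 of 8 fits, and -0.30 in the offset fit).

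A list of 11 genes, all tested, covered acetyl-CoA and NADPH supply and its control, and so includes genes that act against it. Of these, 1 was higher (Pdk1) and 0 lower in Brd9, 2 (Pdk1 and Pdha1) and 2 in Baf250A, and 3 (Mlycd among them) and 0 in Baf180. These counts were 3 and 1, 2 and 2, and 6 and 1 in the offset fit, and 0 and 0, 0 and 1, and 1 and 0 without scramble replicate 2. Slc25a1, which exports the citrate that Acly uses, was lower in Baf250A (log2 fold change -1.19, SE 0.19, edgeR adjusted p = 0.0025, and -0.71 in the offset fit), as was Idh1, a source of NADPH (-0.78, SE 0.19, in 4 of 8 fits, and -1.30 in the offset fit). The kinase gene Pdk1, which restrains pyruvate dehydrogenase, was higher in Brd9 (0.98, SE 0.23) and Baf250A (0.79, SE 0.23), each in 5 of 8 fits, and at 0.62 and 0.50 in the offset fit. Pdha1, a subunit of that enzyme, was higher in Baf250A (0.67, SE 0.20, in 5 of 8 fits, and 0.43 in the offset fit). In Baf180, Acss2, which makes acetyl-CoA from acetate (1.31, SE 0.21), and Mlycd, which breaks down malonyl-CoA (1.05, SE 0.25, in 5 of 8 fits, and 0.44 in the offset fit), were higher.

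Of the other elongation and desaturation enzymes 13 of 17 were tested, with 2 higher and 1 lower in Brd9, 2 and 2 in Baf250A, and 5 and 3 in Baf180. They were 2 and 4, 2 and 5, and 5 and 1 in the offset fit, and without scramble replicate 2 they were 0 and 0, 1 and 1, and 0 and 0. Cyb5a, the electron donor of the desaturases, was higher in all 3 knockdowns, by 0.82 (SE 0.21, in 5 of 8 fits) in Brd9, 1.25 (SE 0.21) in Baf250A and 0.97 (SE 0.21, in 7 of 8 fits) in Baf180. Fads3, of the same family as Fads1 and Fads2, was lower in Baf250A (-0.75, SE 0.15, in 6 of 8 fits), and so was the elongase Elovl7 (-2.03, SE 0.46, in 7 of 8 fits). Elovl4, which makes very long chains, was lower in Baf180 (-1.17, SE 0.29, in 5 of 8 fits, and -0.69 in the offset fit). The dehydratase Hacd2 was lower in Brd9 (-0.53, SE 0.15, edgeR adjusted p = 0.04995), a call that held in 2 of 8 fits, and in Baf180 (-0.72, SE 0.15, in 6 of 8 fits, but -0.28 and not called in the offset fit). Hacd1 was higher in Baf250A (0.64, SE 0.16, in 5 of 8 fits). Fads6 was higher in Brd9 (2.11, SE 0.48, in 4 of 8 fits), and Cyb5r3, which reduces cytochrome b5, in Baf180 (0.54, SE 0.12, in 6 of 8 fits), though not in the offset fit (0.10).

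Cholesterol synthesis and uptake genes share the SREBP factors with the members. Of 22 tested, 0 were called in Brd9, 15 were lower and 0 higher in Baf250A, and 13 were higher and 0 lower in Baf180. The median log2 fold changes were -0.21, -0.75 and 0.50, against 0.04, -0.02 and -0.02 over all tested genes. In the offset fit 1 was higher and 6 lower in Brd9, 17 lower in Baf250A and 17 higher in Baf180. With a library left out, the Baf250A count ran from 6 (without Baf250A replicate 2) to 15 and the Baf180 count from 3 (without scramble replicate 2) to 13. Lss and Nsdhl, enzymes of the sterol part of the pathway, were each at -1.29 (SE 0.13) in Baf250A, and Mvk, mevalonate kinase, was at 1.15 (SE 0.19) in Baf180 and at 0.62 in the offset fit.

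Mitochondrial fatty acid synthesis, a separate pathway that makes the precursor of lipoic acid, had 6 genes, all tested. None was called in Brd9 or Baf250A, and 1, the dehydrogenase gene H2-Ke6 (also Hsd17b8), was higher in Baf180 (0.73, SE 0.23, in 5 of 8 fits), though not in the offset fit (0.27).

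**Figure D4:**
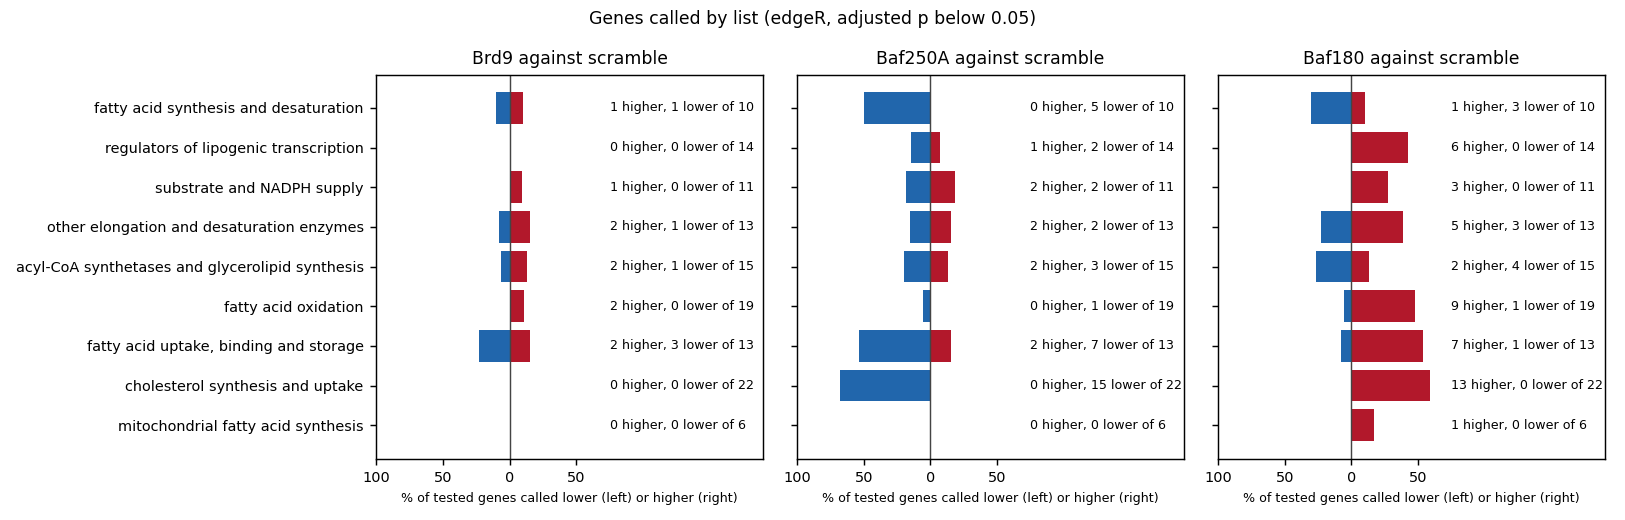
Share of the tested genes in each list (y axis) called lower (blue, left) or higher (red, right) against scramble, in percent (x axis), with the counts printed at the right of each panel. The cholesterol list shows 15 of 22 lower in Baf250A and 13 of 22 higher in Baf180, and the fatty acid synthesis and desaturation genes 5 of 10 lower in Baf250A.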

How the data were processed

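The series holds 8 libraries of C2C12 myoblasts, 2 per shRNA. The authors deposited estimated counts per gene and library, not normalised, with the gene length as another value per the file headers. Build mm10 and the tools RSEM, Bowtie2, HISAT2, StringTie, Cufflinks and DESeq2 are listed in the submitters' processing notes with no role. Strand use in counting was not given in the sources used here.

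Of 24573 genes, 24479 were matched to names by Entrez ID in a RefSeq table and 9 by accession, and 85 were not matched. Counts were rounded, filtered with filterByExpr (minimum count 10), scaled by TMM and tested in edgeR 4.0.16 (R 4.3.3, quasi-likelihood, all 8 libraries, 4 groups, Benjamini-Hochberg over 12420 genes, threshold 0.05). CPM use TMM-scaled library sizes. SE is the absolute log2 fold change over the square root of F. GC and length offsets are loess curves (span 0.3) per library on GENCODE M21 transcript GC content, known for 98.95% of tested genes, and then on length. DESeq2 1.42.0, RLE scaling, no filter, the 4 libraries of a comparison alone, a replicate block and each library left out were alternatives. The procedure was tested on simulated counts. Counting error only is covered by depth, since no molecular identifiers are stated.

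The 10 members and the lists were chosen with earlier results of these data known, and list counts are descriptions. Named genes are all members, the 3 targets, Srebf1 and Srebf2, up to 2 called genes per list, direction and comparison with scramble by lowest p, and the 3 genes nearest in pattern to the member with the lowest p of each such comparison. A gene that this rule names is not reported here.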

Additional observations from a re-analysis of the deposited data

How the results depend on the processing

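Depth limits Acacb, at 4 to 54 counts a library, and 2 libraries a group limit every test. RLE scaling, DESeq2 and no filter reversed no member's direction in any of the 6 comparisons. Of 60 member tests, the call and direction stayed the same in 58 with RLE scaling, 57 with DESeq2, 56 without the filter, 54 with the replicate block and 35 in the offset fit, and in 53 of 59 with the 4 libraries alone, where Acacb was filtered out once. The causes of the changes below were not tested. Shares of all tested genes are given only for the main fit and for the offset fit against scramble, not for the other fits counted below.

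Called members in Brd9 against scramble were 2 in the main fit, 4 without the filter, 6 in the offset fit and 1 to 3 with a library left out. The ranges with a library left out were 2 to 5 for Baf250A against scramble, 1 to 3 for Baf180 against scramble, 3 to 6 for Baf250A against Brd9 and 0 to 8 for Baf180 against Brd9, which had 5 with the 4 libraries alone and 5 in the offset fit.

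Directions reversed in the offset fit for Elovl5 in Brd9 (-0.046) and Elovl6 in Baf250A (-0.068) against scramble, for Fasn (-0.18), Scd2 (0.021), Fads2 (-0.048) and the sum of Scd1 and Scd2 (0.064, from -0.0055) in Baf180 against scramble, for Fasn in Baf250A against Brd9 (0.24), Scd1 (0.093) and Fads1 (-0.096) in Baf180 against Brd9, and Acaca in Baf180 against Baf250A (0.23). With a library left out, values crossed 0 for Elovl6 in Brd9 against scramble (-0.28 to 0.18), Fasn (-0.060 to 0.37) and Scd2 (-0.15 to 0.050) in Baf180 against scramble, Acacb (-0.78 to 0.16) and Fasn (-0.25 to 0.24) in Baf250A against Brd9, and Fads1 in Baf180 against Brd9 (-0.046 to 0.11). Of these, Scd1 in Baf180 against Brd9 was called in the main fit.

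Whether libraries with the same replicate number share more than that number was not given. The correlations here are between libraries with the same number. Their deviations correlated across genes at -0.05, 0.12 and 0.02 for scramble with Brd9, Baf250A and Baf180, and at -0.47, -0.48 and 0.46 between knockdowns. With the replicate block, called members were 1, 5 and 2 for Brd9, Baf250A and Baf180 against scramble, and 4, 7 and 9 for Baf250A against Brd9, Baf180 against Brd9 and Baf180 against Baf250A. The calls not made with it were Scd1 in Brd9 against scramble (0.67, edgeR adjusted p = 0.0651), Acaca and Elovl5 in Baf180 against scramble (0.0658 and 0.0815), Acly and Fads1 in Baf250A against Brd9 (0.0875 and 0.0601) and Scd1 in Baf180 against Brd9 (0.0718).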

Other observations

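Of 13 tested genes of fatty acid uptake, binding and storage, 2 were higher and 3 lower in Brd9, 2 and 7 in Baf250A, and 7 and 1 in Baf180. In the offset fit the counts were 2 and 5, 2 and 7, and 5 and 3, and without scramble replicate 2 they were 1 and 1, 1 and 5, and 3 and 0. The Baf250A count of lower genes was 4 without Baf250A replicate 2, and the Baf180 count of higher genes was also 3 without scramble replicate 1. In the main fit, genes called higher made up 6.45% of all tested genes in Brd9, 15.5% in Baf250A and 17.2% in Baf180. Genes called lower made up 3.57% in Brd9, 14.0% in Baf250A and 17.0% in Baf180. With offsets, the higher share was 11.8% in Brd9, 17.9% in Baf250A and 18.0% in Baf180. The lower share was then 18.4% in Brd9, 17.5% in Baf250A and 20.2% in Baf180. Main and offset list counts here stand beside the shares of their own fit. No such share is given for fits with a library left out. As above, single calls held in all 8 fits with a library left out unless a smaller number is given. Lpl, the lipase that frees fatty acids from circulating lipoproteins, was higher in Brd9 (log2 fold change 4.21, SE 0.37) and Baf250A (3.77, SE 0.37). The lipid droplet coat genes Plin2 (-1.21, SE 0.17) and Plin3 (-1.08, SE 0.16) were lower in Baf250A, and Plin2 was also lower in Baf180 (-0.51, SE 0.17, in 5 of 8 fits). Pnpla2, the first lipase of stored triglyceride, was lower in Brd9 (-1.45, SE 0.20), as was the binding protein gene Fabp5 (-0.79, SE 0.16, in 5 of 8 fits). Acot1, a cytosolic acyl-CoA thioesterase, was higher in Brd9 (1.15, SE 0.23) and Baf250A (0.74, SE 0.24), each in 5 of 8 fits, and in Baf180 (2.58, SE 0.23), and Mgll, a monoglyceride lipase, was higher in Baf180 (1.64, SE 0.24).

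Of 19 tested genes of fatty acid oxidation, 2 were higher and 0 lower in Brd9, 0 and 1 in Baf250A, and 9 and 1 in Baf180. These counts became 4 and 1, 2 and 3, and 8 and 1 in the offset fit. With a library left out, the Baf180 count of higher genes ran from 1 (without scramble replicate 1) to 10 and was 2 without scramble replicate 2, where 0 were called in Brd9 and Baf250A. Cpt1a, the mitochondrial import step that malonyl-CoA inhibits, was higher in Baf180 (0.91, SE 0.12) and Brd9 (0.49, SE 0.12, in 4 of 8 fits), and Acaa2, a thiolase, was higher in Baf180 (0.95, SE 0.19, in 7 of 8 fits). Hadhb, a subunit of the trifunctional protein, was lower in Baf180 (-1.14, SE 0.13). In Brd9 the dehydrogenase gene Acadm was higher (0.77, SE 0.20, in 5 of 8 fits), and in Baf250A Acadl was lower (-0.39, SE 0.13, in 2 of 8 fits, and -0.61 in the offset fit).

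Of 15 tested genes for acyl-CoA synthetases and glycerolipid synthesis, 2 were higher and 1 lower in Brd9, 2 and 3 in Baf250A, and 2 and 4 in Baf180. These were 2 and 4, 4 and 3, and 2 and 4 in the offset fit, and 0 and 0, 1 and 1, and 0 and 0 without scramble replicate 2. Lpin1, a phosphatidate phosphatase gene, was higher in Brd9 (1.10, SE 0.20, in 5 of 8 fits), Baf250A (1.24, SE 0.20) and Baf180 (0.91, SE 0.20, in 6 of 8 fits). Lpin3, of the same family, was lower in Baf250A (-2.24, SE 0.14), and in Brd9 (-0.59, SE 0.14) and Baf180 (-0.50, SE 0.14, and -0.84 in the offset fit) in 4 of 8 fits each. Gpam, which starts glycerolipid synthesis, was higher in Brd9 (0.62, SE 0.15, in 4 of 8 fits) and Baf180 (0.52, SE 0.15, in 5 of 8 fits). Acsl4 was higher in Baf250A (1.16, SE 0.27) but at 0.08 in the offset fit, where it was not called, and Agpat3 was lower in Baf250A (-0.57, SE 0.14, and -0.24 in the offset fit), each in 5 of 8 fits. Acsl5 was lower in Baf180 (-0.48, SE 0.13, in 5 of 8 fits), though not in the offset fit (-0.28).

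The genes nearest to a member over the 8 libraries were found by the mean absolute difference of centred log2 CPM. Nearest to Fads2 were Wfs1 (0.0546), Rasa4 (0.0602) and Hgs (0.0632), and nearest to Acaca were Dusp5 (0.0661), Fkbp5 (0.0757) and 2610507B11Rik (0.0769). For Acacb, where counts are low, they were Acot1 (0.233), Adra1d (0.262) and Fbln5 (0.287). Many genes were about as near: within double the distance of the nearest gene lay 19 genes for Fads2, 73 for Acaca and 66 for Acacb. Wfs1, Rasa4 and Hgs had transcript GC contents of 57.8%, 58.8% and 58.1%, and the part of base composition in these patterns was not tested.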
